A study of Homo sapiens with 52 samples.

Results

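The response of neurites to knockdown of TDP-43 was measured by total RNA-seq in 10 libraries of a series of 52: neurite fractions of 5 TDP43-knockdown samples (1, 2, 3, 4 and 5) and of 5 nontargeting-sgRNA samples (1, 2, 4, 5 and 6) of the same experiment. Membership came from the sample labels alone (gene targeted, sgRNA and fraction), not from any measured value. The cells were i3Neurons, glutamatergic neurons obtained from WTC11, an established human induced pluripotent stem cell line, by doxycycline-driven expression of a neurogenic factor. Both groups carry a sgRNA for CRISPR interference, in which a catalytically dead Cas9 fused to a repressor is brought to a promoter: the knockdown group received a sgRNA against TDP-43, the control group one with no target. Transduced stem cells were selected before differentiation, replated on day 3 onto inserts with pores of 1 µm and harvested on day 17, so that the neurites growing through the membrane were collected apart from the upper side, the soma fraction, which keeps its own neurites. All 10 libraries were made from 10 ng of RNA. Whether numbered samples of a group were separate cultures is not stated in the labels, and the p-values cover no more than the spread among these libraries, which may be technical.

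TDP-43, encoded by TARDBP, is an RNA-binding protein that is mostly nuclear and also travels in RNA granules along axons. It binds UG-rich stretches of RNA (written as TG in DNA letters), represses the inclusion of cryptic exons, acts on messages through their 3' untranslated regions (3' UTRs), and lowers its own message in that way. Its loss from the nucleus of motor and cortical neurons is a hallmark of amyotrophic lateral sclerosis (ALS) and of a form of frontotemporal dementia (FTD). 7SL is the RNA scaffold of the signal recognition particle, which brings ribosomes making secreted and membrane proteins to the endoplasmic reticulum (ER). A library's 7SL share sets how many of its reads are left for messages.

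The 7SL counts of the neurite libraries fell mostly on RN7SL1 (64.6% of 7SL counts on average, n = 10 libraries) and on a pair of its annotated pseudogenes, RN7SL4P (20.7%) and RN7SL5P (12.9%), while RN7SL2 had no count in these libraries and RN7SL3 held 1.162%. The pseudogenes share long stretches with RN7SL1 (89.0% identity over the aligned bases for RN7SL4P and 92.3% for RN7SL5P). How reads shared between these loci were assigned is not known, so single loci are uncertain, and the 7SL share is the sum over the family.

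The small nucleolar RNA SNORD17 (chr20:17962710-17962946, minus strand, GENCODE 29 annotation of hg38) is shown because it stands for a class that was lower in knockdown neurites, with its C-box-like and D-box letters, TGATGA and CTGA, in capitals.
SNORD17: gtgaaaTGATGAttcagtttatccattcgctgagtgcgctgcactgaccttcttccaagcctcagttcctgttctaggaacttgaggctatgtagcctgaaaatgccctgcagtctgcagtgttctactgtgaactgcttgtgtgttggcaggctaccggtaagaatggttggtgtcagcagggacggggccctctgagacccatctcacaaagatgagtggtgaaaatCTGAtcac

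The remaining sequences are TG runs, uninterrupted alternations of T and G in capitals, in the annotated 3' UTRs of 5 messages that rose in knockdown neurites and of UNC13A, which fell. The genes are C1orf216 (chromosome 1, 35713875 to 35719472, minus strand), NAT8L (chromosome 4, 2059512 to 2069089, plus strand), CADM3 (chromosome 1, 159171609 to 159203313, plus strand), DUSP22 (chromosome 6, 291630 to 351355, plus strand), IGF1R (chromosome 15, 98648539 to 98964530, plus strand) and UNC13A (chromosome 19, 17601328 to 17688365, minus strand), and each window is at most 30 bases of the longest protein-coding transcript.
C1orf216: tgaacataTGTGTGTGTGTGTagtatgtaa
NAT8L: gtttgagcGTGTGTGTGTGTGcaagtgggt
CADM3: tgtgcaTGTGTGTGTGTGTGTGTGcatgtg
DUSP22: atgaatgttTGTGTGTGTGTGaactctttc
IGF1R: aggaaaggGTGTGTGTGTGTGTatgtgtgg
UNC13A: acctccGTGTGTGTGTGTGTGTGTttaggg

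The targeted gene was read first. TARDBP (chromosome 1, 11012344 to 11026420, plus strand) had 39.7, 30.1, 33.2, 32.9 and 34.8 CPM (counts per 1e6 counts of the library, with library sizes scaled by TMM) in knockdown neurites, against 104.6, 101.9, 90.4, 93.3 and 96.6 CPM in control neurites. Every knockdown library lay far below every control library. The means were 34.1 ± 3.56 CPM in knockdown and 97.3 ± 5.88 CPM in control neurites (SD, n = 5 each), which left 35.2% of the control level (log2 change -1.504 ± 0.07 SE; edgeR quasi-likelihood test, Benjamini-Hochberg adjusted p = 3.1e-10). MASP2, a complement protease gene whose 3' end faces that of TARDBP on the other strand (11026523 to 11047233), had 3.92 to 4.87 CPM in knockdown and 9.95 to 14.7 CPM in control neurites (log2 -1.41 ± 0.13). MASP2 also fell in neurites after knockdown of another RNA-binding protein, hnRNPA1, in other libraries (log2 -0.28, edgeR adjusted p = 0.0276), where TARDBP, at -0.07, did not pass the test. No source used here gives the strand setting of the counting, so reads that run past the end of TARDBP cannot be told apart from MASP2.

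The 10 neurite libraries held 6.83e6 to 14.5e6 counts in knockdown and 9.17e6 to 12.8e6 counts in control samples, with TMM factors of 0.721 to 1.193. Markers of neurons were present in both groups, with MAP2 at 1725 CPM in knockdown and 1643 CPM in control neurites. Of 15 neuron markers 5 rose (SLC17A7, NEFL, NEFM, DCX and ELAVL4) and 3 fell (STMN2, TUBB3 and SNAP25). Of 11 pluripotency markers 3 passed the filter on low counts and none of those changed. Their list summed to 18.98 to 21.05 CPM in knockdown and 20.9 to 24.1 CPM in control neurites, and 19 of 25 cell cycle markers were tested with no call. Among 5 tested markers of astrocytes and oligodendrocytes SLC1A2, a glutamate transporter, rose and SOX9 fell, and GFAP and AQP4 were under the filter. Among 8 of mesenchymal cells COL6A1, a collagen VI chain, rose (366 ± 27.9 against 214 ± 19.6 CPM), with COL1A1 at 2.88 and 2.46 CPM. The part of such cells in the results was not tested. Ribosomal RNA genes held 2.94 ± 0.49% of counts in knockdown and 2.26 ± 0.26% in control neurites (SD, n = 5 each; exact 2-sided permutation p = 0.0238, adjusted p = 0.0833 over 7 shares), and the part of this in the results was not tested. In bulk RNA, fewer cells or neurites of a kind and less RNA in each cannot be told apart.

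The share of counts on 7SL varied more widely within each group than the group means differed. It was 20.6, 31.7, 7.97, 6.01 and 5.65% in knockdown samples 1 to 5, against 21.4, 18.8, 45.7, 33.9 and 17.2% in control samples 1, 2, 4, 5 and 6. Knockdown samples 3, 4 and 5 lay below every control library, knockdown samples 1 and 2 lay among the controls, and control samples 4 and 5 were the highest. The means were 14.4 ± 11.5% in knockdown and 27.4 ± 12.2% in control neurites (SD, n = 5 each), a difference of -12.998 percentage points that was within the spread of the libraries (exact 2-sided permutation test, p = 0.135, adjusted p = 0.167 over 7 shares; the smallest p this design allows is 0.00794). In the soma fraction the 7SL share was 1.84 to 2.64% in knockdown and 1.51 to 2.56% in control libraries. RN7SL1 alone had a log2 change of -0.99 ± 0.55 (edgeR adjusted p = 0.204) and RN7SL3 of -0.37 ± 0.42 (adjusted p = 0.563). RN7SL1 passed the test without knockdown 2 (log2 -1.73), without the 3 libraries of highest share (-0.93) and with library sizes as the only scaling (-0.94). Both genes passed it without a low-count filter, in the same direction. RN7SL3 was called with a positive value (0.57) with the 7SL share as a covariate. That covariate is made from the counts of these same genes, so 7SL values with it do not measure a change of 7SL. Of the 7SL genes and pseudogenes tested none of 32 was called, against 6 falls among 40 without the 3 libraries and 3 rises among 70 in soma. With the covariate 4 of 44 were called with positive values. Of the 8 proteins of the signal recognition particle and its receptor SRPRA and SRPRB, the receptor subunits, rose (log2 0.35 and 0.29), none fell, and 3 had negative log2 values. At 25% called, the 8 were near the 23.0% of all genes tested. Neither rise was called with library sizes alone.

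Because 3 libraries (knockdown 2, control 4 and control 5) had over 30% of their counts on 7SL, each count below that they move by more than 1.5 times is also given without them, an alternative chosen after the data were seen. With the 7SL share as a covariate, 2061 genes were called (1299 higher, 762 lower). Beyond these fits, the part of the 7SL difference in the changes of other genes was not tested.

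**Figure D1:**
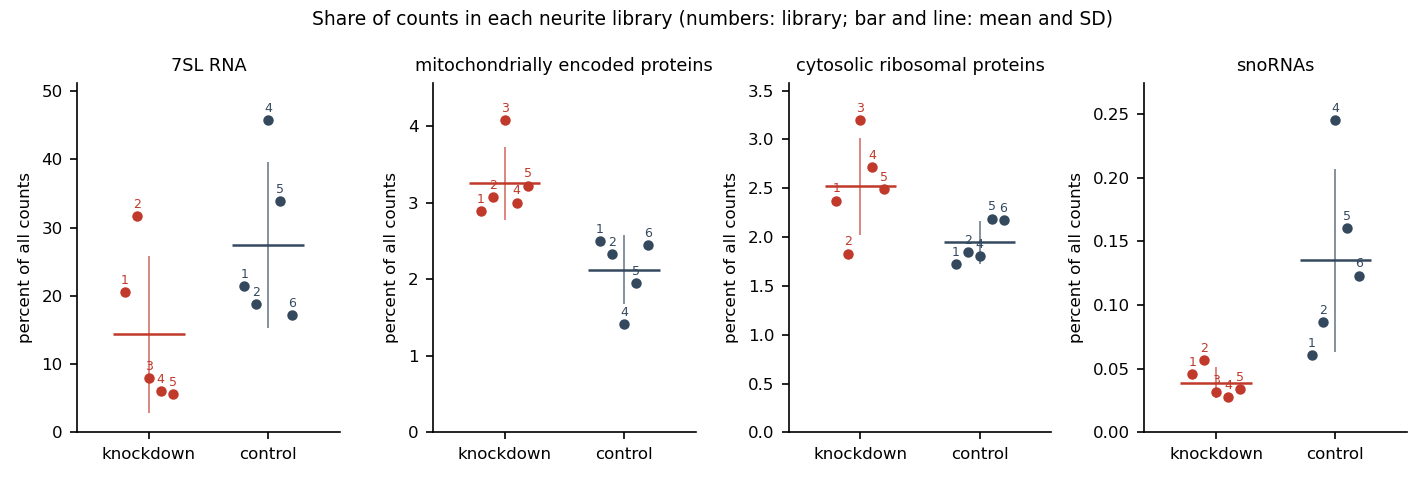
Percent of all counts in each neurite library (vertical axes, linear) on 7SL RNA, on mitochondrially encoded proteins, on cytosolic ribosomal proteins and on snoRNAs, with knockdown on the left and control on the right; points are libraries marked with their sample number, bars are means and lines SDs (n = 5 each). The 7SL shares overlap, with knockdown 3, 4 and 5 below every control, while the mitochondrially encoded shares of knockdown (2.89 to 4.07%) all lie above those of control (1.41 to 2.50%).

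Across all genes, 3933 of 17107 tested (23.0%) differed between knockdown and control neurites at an adjusted p under 0.05 with edgeR, 2107 of them higher (12.3%) and 1826 lower (10.7%) in knockdown. Changes were small for most: the median absolute log2 change of the called genes was 0.43, and 157 higher and 208 lower genes passed 2-fold. The 5 knockdown and 5 control libraries did not overlap for 2776 genes (16.2%), of which 2536 were among those called. With library sizes as the only scaling 1102 genes were called, 762 higher and 340 lower, and the median log2 change of all genes was 0.07 in place of -0.03.

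PTPRT, a receptor-type protein tyrosine phosphatase, had 52.6, 52.6, 48.8, 46.0 and 53.3 CPM in knockdown neurites, against 164, 157, 147, 128 and 171 CPM in control neurites (log2 -1.60 ± 0.08, edgeR adjusted p = 3.1e-10). STMN2 encodes stathmin-2, a microtubule-binding protein of growing axons whose message is cut short by a cryptic exon when TDP-43 is lost. It had 211, 155, 194, 174 and 177 CPM in knockdown neurites, against 454, 447, 521, 544 and 516 CPM in control neurites (log2 -1.45 ± 0.09, edgeR adjusted p = 5.3e-09). For both genes the highest knockdown library stayed well under the lowest control library, and the knockdown libraries of PTPRT lay close together. CDH4 (R-cadherin, a cell adhesion molecule) averaged 19.9 ± 1.38 CPM in knockdown and 47.9 ± 7.53 CPM in control neurites (log2 -1.28), and the extracellular matrix protein tenascin-C, TNC, 8.07 ± 1.84 and 19.8 ± 2.20 CPM (log2 -1.34). GALR1, a receptor of the neuropeptide galanin, averaged 3.57 ± 0.56 CPM in knockdown and 10.1 ± 2.02 CPM in control neurites (log2 -1.48).

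The other genes of the 12 largest falls were TARDBP and MASP2 themselves, GPR83 (a G protein-coupled receptor, log2 -1.160), the transcription factor TFAP2A (-1.14), the histone gene H4C3 (-1.14), IQCN (-1.14) and KLHL14 (-1.123). The insulin receptor INSR came just after them (-1.110). PTPRT, GPR83, TFAP2A and KLHL14 also fell in neurites after knockdown of hnRNPA1, measured against its own controls (log2 -0.72, -0.58, -0.76 and -0.88), whereas TNC rose there (log2 1.37). STMN2, CDH4 and INSR had log2 values of -0.08, 0.02 and 0.01 in that comparison, none of which passed the test.

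Among the rises, ACKR1, an atypical chemokine receptor, had 16.4, 22.7, 17.4, 19.97 and 18.5 CPM in knockdown neurites, against 3.50, 2.92, 3.19, 2.84 and 3.67 CPM in control neurites (log2 2.53 ± 0.12, edgeR adjusted p = 3.1e-10). It begins at 159203307 on chromosome 1, before the annotated end of CADM3 at 159203313 on the same strand, and CADM3, a neuronal adhesion molecule, also rose. Reads past the end of CADM3 cannot be told apart from ACKR1 in these counts. MVP, the major protein of the vault ribonucleoprotein particle, had 30.8, 31.0, 34.0, 39.5 and 30.9 CPM in knockdown neurites, against 6.85, 5.92, 10.0, 6.16 and 8.59 CPM in control neurites (log2 2.18 ± 0.12). ELK1, a transcription factor that responds to growth factor signalling, had 59.0, 61.8, 68.5, 65.1 and 64.0 CPM in knockdown neurites, against 17.2, 21.5, 17.2, 18.7 and 20.4 CPM in control neurites (log2 1.74 ± 0.08). No library of either group crossed into the range of the other for these genes.

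TRAK2, an adaptor that couples mitochondria to kinesin and dynein, was the most abundant of the 12 largest rises. It had 643, 707, 707, 596 and 618 CPM in knockdown neurites, against 253, 247, 140, 198 and 201 CPM in control neurites (log2 1.65 ± 0.12, edgeR adjusted p = 6.6e-08). Control sample 4, the library with the highest 7SL share, was the lowest for TRAK2, and every knockdown library was well above every control library. PHF2, a histone demethylase with a PHD finger, had 251, 263, 257, 235 and 217 CPM in knockdown neurites, against 92.8, 87.1, 81.6, 78.9 and 85.7 CPM in control neurites (log2 1.52 ± 0.07). Other rises among the 12 were those of TMEM179 (log2 2.39), NKD2, an inhibitor of Wnt signalling (2.07), the growth factor IGF2 (1.71), the homeobox factor TLX1 (1.71), the Rac exchange factor PREX2 (1.58) and SLX9 (1.56), with FCGBP next at 1.498. After hnRNPA1 knockdown MVP, TLX1, IGF2 and ELK1 also rose in neurites (log2 0.69, 0.67, 0.54 and 0.22), while TRAK2, PHF2, ACKR1 and TMEM179 did not pass the test (0.01, 0.06, -0.07 and -0.15).

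**Figure D2:**
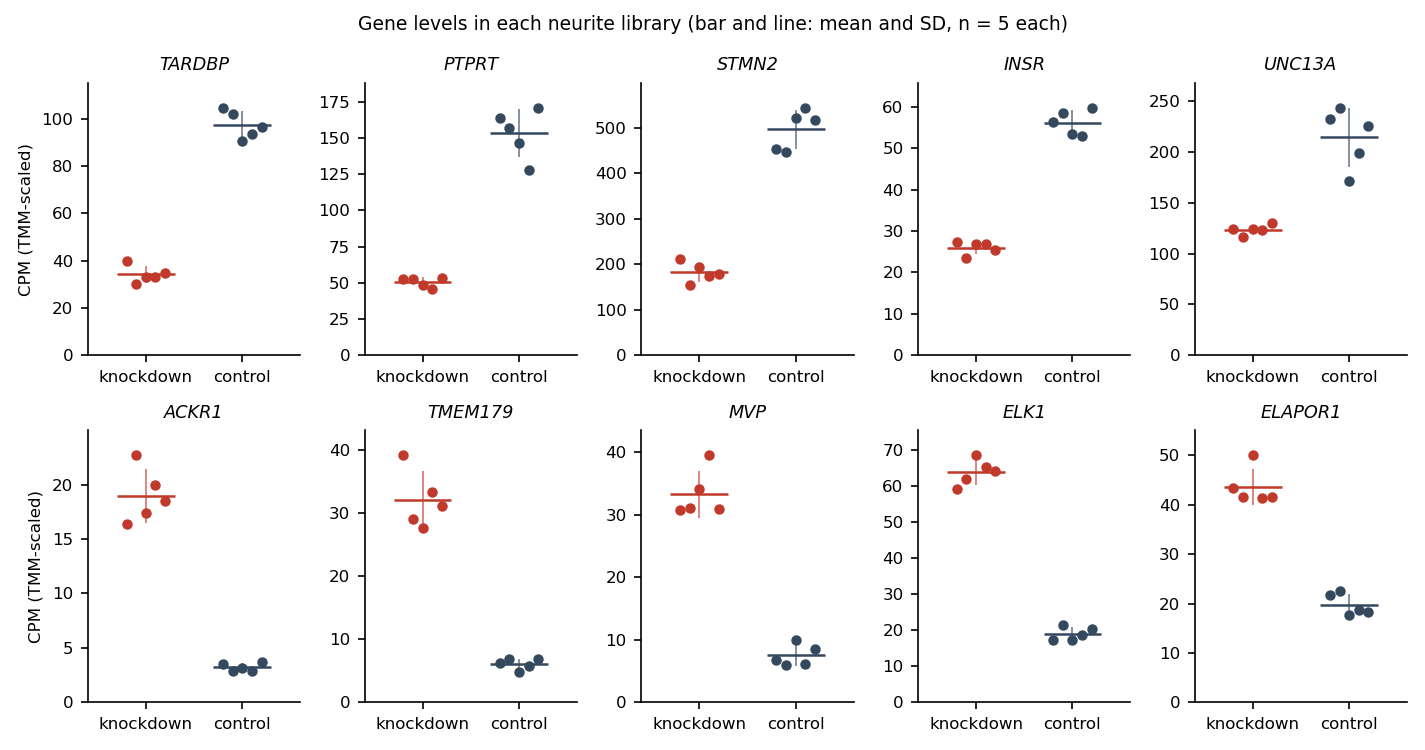
Levels of 10 genes in each neurite library in TMM-scaled CPM (vertical axes start at 0), knockdown on the left and control on the right of each panel; points are libraries, bars means and lines SDs (n = 5 each). The upper row holds genes that fell (TARDBP, PTPRT, STMN2, INSR, UNC13A) and the lower row genes that rose (ACKR1, TMEM179, MVP, ELK1, ELAPOR1), and in no panel do the groups overlap.

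Of 39 tested transcripts known from other work to be mis-spliced or reduced when TDP-43 is lost, 18 fell and 8 rose in knockdown neurites (11 and 4 with library sizes alone), with a median log2 change of -0.17 against -0.03 over all genes tested. Calls were made for 66.7% of the list and for 23.0% of all genes tested. The list was chosen with results of these data known, so its direction is no independent evidence. UNC13A, a synaptic vesicle priming factor with a known cryptic exon, had 124, 117, 124, 124 and 130 CPM in knockdown neurites, against 232, 244, 172, 199 and 226 CPM in control neurites (log2 -0.79 ± 0.08, edgeR adjusted p = 3.5e-06). All knockdown libraries lay under all control libraries, control 4 again being the lowest of its group. INSR averaged 26.0 ± 1.61 CPM in knockdown and 56.2 ± 3.04 CPM in control neurites, and ELAVL3, a neuronal RNA-binding protein, 112 ± 9.45 and 194 ± 9.09 CPM (log2 -0.79). PFKP, a phosphofructokinase of glycolysis (log2 -0.93), CYFIP2, of the actin-regulating WAVE complex (-0.74), ACTL6B, a neuronal chromatin remodelling subunit (-0.71), the autophagy protease ATG4B (-0.68), the calcium-dependent kinase subunit CAMK2B (-0.68), TRAPPC12 (-0.66), CELF5 (-0.65) and MADD (-0.60) also fell.

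Smaller falls in that list were those of SYNJ2 (log2 -0.58), ICA1 (-0.47), CEP290 (-0.39), UNC13B (-0.36), NUP188 (-0.29) and KALRN (-0.28). SYNJ2 was at the edge of the test, and its call held in 3 of the 10 fits that each left out a library. The rises were led by ELAPOR1 (43.61 ± 3.71 CPM in knockdown and 19.8 ± 2.26 CPM in control neurites, log2 1.125). Those of the synapse organiser agrin, AGRN (log2 0.77), the receptor phosphatase PTPRZ1 (0.62), the sorting receptor SORT1 (0.39), the synaptotagmin SYT7 (0.33) and the alanyl-tRNA synthetase AARS1 (0.28) followed. These are counts per gene, so a change of isoform within a gene is not seen in them.

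Among 9 messages reported as TDP-43 cargo in axons, the neurofilament genes NEFM and NEFL rose (log2 0.53 and 0.45). NEFM had 2325, 2670, 2477, 2290 and 2449 CPM in knockdown neurites, against 1845, 1693, 1557, 1533 and 1842 CPM in control neurites, with no overlap. The neurotrophin BDNF, at 1.28 CPM in knockdown and 2.12 CPM in control neurites, fell by 0.70 on the log2 scale. That call was lost without knockdown 4 or without control 6. Of 32 genes linked to ALS and FTD 8 fell and 4 rose, TARDBP, STMN2 and UNC13A among the falls and TBK1, an autophagy kinase, with them (log2 -0.47). That is 37.5% called, against 23.0% of all genes tested. Without knockdown 4 the counts were 5 and 1, and without knockdown 2 they were 7 and 2.

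**Figure D3:**
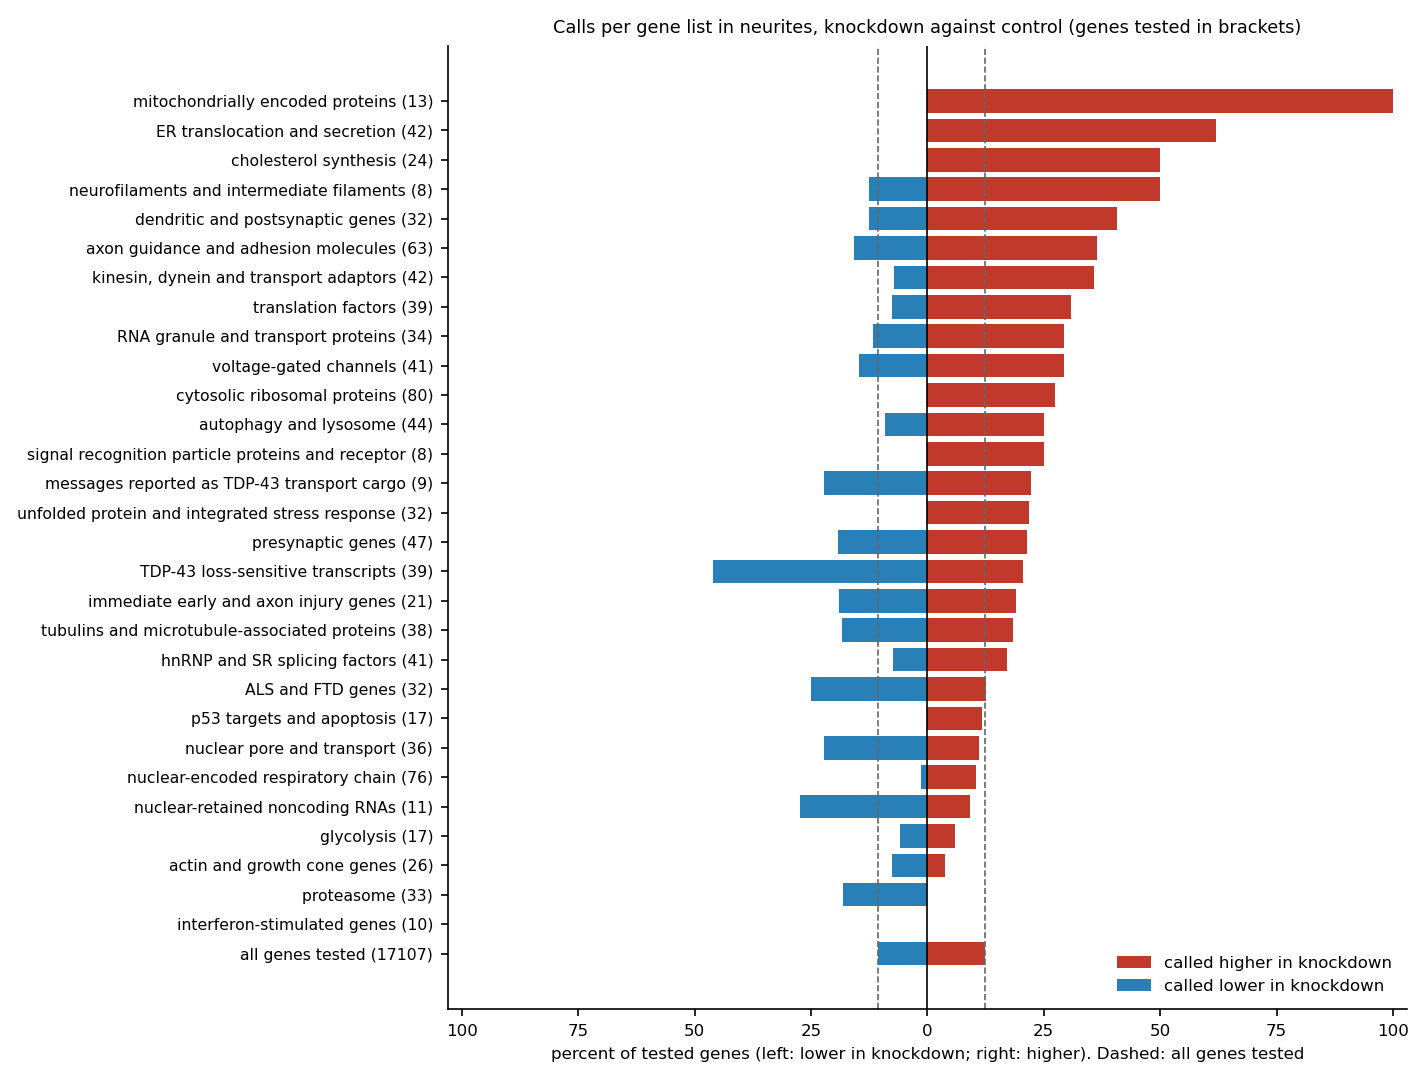
Percent of the tested genes of each list (number in brackets) called by edgeR in neurites, lower in knockdown to the left and higher in knockdown to the right of the zero line; dashed lines mark all genes tested (10.7% lower, 12.3% higher). All 13 mitochondrially encoded genes and 26 of 42 genes of ER translocation and secretion were called higher, while 18 of 39 loss-sensitive transcripts were called lower.

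Of 42 genes of ER translocation and secretion 26 rose and none fell (median log2 0.27 against -0.03 over all genes tested), and 29 rose without the 3 libraries of high 7SL share. Over all genes tested 12.3% rose and 10.7% fell. SEC61A1, the pore of the ER translocon, had 106, 126, 126, 122 and 128 CPM in knockdown neurites, against 82.5, 83.9, 74.3, 83.2 and 84.2 CPM in control neurites (log2 0.57 ± 0.07, edgeR adjusted p = 9.0e-06). The groups did not overlap, and knockdown 1 was the lowest of its group. STT3A, a catalytic subunit of oligosaccharyltransferase (log2 0.71), SSR1, a subunit of the translocon-associated complex (0.65), and RPN1, a further subunit of oligosaccharyltransferase (0.56), rose as well. With library sizes as the only scaling 7 of the 42 rose, and with the 7SL share as a covariate 16.

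Cholesterol synthesis genes rose in 12 of 24 cases with no fall (median log2 0.19; 14 of 24 without the 3 libraries), where 12.3% of all genes tested rose and 10.7% fell. SREBF2, the transcription factor that drives the pathway, averaged 541.5 ± 33.9 CPM in knockdown and 356 ± 23.4 CPM in control neurites (log2 0.60), and lanosterol synthase, LSS, rose by 0.31 on the log2 scale. With library sizes alone 3 of the 24 rose, and with the 7SL share as a covariate 7. Among stress response genes (unfolded protein and integrated stress response) 7 of 32 rose and none fell, among them the amino acid transporter SLC7A5 (128 ± 10.5 against 72.6 ± 6.05 CPM, log2 0.81) and the ER chaperone HSPA5 (198 ± 16.8 against 147 ± 11.4 CPM, log2 0.44). At 21.9% called, the stress response list was near the 23.0% of all genes tested. Without the 3 libraries the counts were 11 and 1.

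The 13 mitochondrially encoded protein genes all rose, by 0.31 to 0.76 on the log2 scale (median 0.54), and 10 of them had no overlap between the groups. MT-ND5, a subunit of complex I, had 4011, 5186, 4854, 3429 and 3837 CPM in knockdown neurites, against 2935, 2577, 2156, 2521 and 2619 CPM in control neurites (log2 0.73 ± 0.13, edgeR adjusted p = 0.000491). Their summed share of counts was 2.89, 3.07, 4.07, 3.00 and 3.22% in knockdown, against 2.50, 2.33, 1.41, 1.95 and 2.44% in control libraries, with no overlap (exact 2-sided permutation p = 0.00794, the smallest possible, adjusted p = 0.0556 over 7 shares). Set against the counts of protein-coding genes the groups overlapped, with 3.566 to 5.23% in knockdown and 3.11 to 3.572% in control libraries. The mitochondrial tRNA genes moved alike: 13 of 22 rose and 1 fell (median log2 0.52). Without the 3 libraries 12 of the 13 rose (median 0.38), and with library sizes as the only scaling 5.

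The nuclear-encoded messages of the same complexes and the ribosomal protein messages depended on which libraries were in the fit. With all 10 libraries 13.7% of protein-coding genes rose and 10.0% fell. Of 76 nuclear-encoded respiratory chain genes 8 rose and 1 fell (median log2 0.08), but 46 rose and none fell without the 3 libraries of high 7SL share, and 13 rose without control 4 alone. Of 80 cytosolic ribosomal protein genes 22 rose and none fell (median 0.23). That count was 70 without the 3 libraries (median 0.50), 41 without control 4, 10 without knockdown 3, 12 without control 1, 12 without control 2 and 4 with library sizes alone. The ribosomal protein share of counts was 2.52 ± 0.50% in knockdown and 1.95 ± 0.22% in control neurites (exact 2-sided permutation p = 0.0476, adjusted p = 0.111 over 7 shares, n = 5 each). Knockdown 2, the knockdown library with the most 7SL, had a share within the control range, and knockdown 3 had the highest. Set against the counts of protein-coding genes the share was 3.07 to 3.90% in knockdown, inside the 2.46 to 3.97% of control libraries. Translation factors rose in 12 of 39 cases and fell in 3, with the initiation scaffold EIF4G1 at 387 ± 19.7 CPM in knockdown and 288 ± 16.7 CPM in control neurites (log2 0.43). Without the 3 libraries 16 rose and none fell, without knockdown 3 the counts were 7 and 3, and with library sizes alone 1 rose.

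Of 42 genes of transport along microtubules (kinesins, dynein subunits and adaptors) 15 rose and 3 fell, with a median log2 change of 0.00. Among all protein-coding genes tested 13.7% rose and 10.0% fell. After TRAK2 came BICD2, an adaptor that activates dynein, with 690, 854, 838, 860 and 875 CPM in knockdown neurites, against 417, 383, 336, 286 and 387 CPM in control neurites (log2 1.185 ± 0.10, edgeR adjusted p = 2.8e-07). Knockdown 1 was the lowest of its group and still above all controls. Its paralog BICD1 (log2 0.57) and the kinesin-binding scaffold MAPK8IP3 (0.52) rose too. With library sizes alone 5 of the 42 rose and none fell, and without control 4 there were 15 rises and 5 falls. Of 38 tubulins and microtubule-associated proteins 7 rose and 7 fell, among them CLASP1 (log2 0.48), which binds growing microtubule ends, and the neuronal beta-tubulin TUBB3 (-0.36). Without the 3 libraries the counts were 5 and 3, and with library sizes alone none was called.

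Synaptic and excitability genes moved in both directions. The counts below stand beside 13.7% higher and 10.0% lower among all protein-coding genes tested. Of 47 presynaptic genes 10 rose and 9 fell, led by complexin-2, CPLX2, a regulator of vesicle fusion, at 530 ± 23.6 CPM in knockdown and 227 ± 22.9 CPM in control neurites (log2 1.222). The vesicular glutamate transporter SLC17A7 (0.67) and the active zone protein RIMS3 (0.50) rose, and the vesicle GTPase RAB3B fell (-0.51). Of 32 dendritic and postsynaptic genes 13 rose and 4 fell (median 0.15), among them the scaffold HOMER2 (0.56), the NMDA receptor subunit GRIN2D (0.55) and the kainate receptor subunit GRIK5 (0.51). Of 41 voltage-gated channel genes 12 rose and 6 fell (median 0.08), with the potassium channel KCNC1 (0.68), which averaged 93.2 ± 4.26 CPM in knockdown and 57.8 ± 7.32 CPM in control neurites, and the calcium channels CACNA1H (0.61) and CACNA1B (0.55) among the rises. Of 63 axon guidance and adhesion genes 23 rose and 10 fell (median 0.11). The netrin receptor UNC5B rose (14.5 ± 2.74 against 5.65 ± 0.47 CPM, log2 1.35), and PTPRT, CDH4 and TNC were among the falls. With library sizes alone the counts of rises and falls were 2 and 0 for presynaptic, 6 and 1 for postsynaptic, 7 and 1 for channel and 12 and 4 for guidance and adhesion genes.

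The remaining lists are given by their counts. Of all genes tested 12.3% were called higher and 10.7% lower, 23.0% together. Of 8 neurofilament and other intermediate filament genes 4 rose and 1 fell, VIM being the fall (log2 -0.53), and of 10 neural progenitor markers tested 2 rose (NES and NOTCH1) and 2 fell (SOX2 and VIM). The proteasome had 6 falls and no rise among 33 genes (median -0.10), with counts of 3 and 0 without any of knockdown 1, knockdown 2, control 4 or control 5, and 2 falls and 3 rises without the 3 libraries. PSMD14, a deubiquitinase of its lid, fell by 0.31 on the log2 scale. Of 36 nuclear pore and transport genes 8 fell and 4 rose, with RANBP1, a partner of the Ran GTPase (log2 -0.75), and the pore protein NUP210 (-0.69) leading. Without knockdown 5 the counts were 5 and 2, and without the 3 libraries 6 and 2. Splicing factors of the hnRNP and SR families had 7 rises and 3 falls among 41 (6 and 1 without the 3 libraries). At 24.4% called, they were near the share of all genes. RNA granule and transport proteins had 10 and 4 among 34 (6 and 3 without the 3 libraries), with IGF2BP1 (0.57) up and the double-strand RNA-binding protein STAU2 (-0.42) down. Autophagy and lysosome genes had 11 and 4 among 44. Glycolysis (1 and 1 of 17), actin and growth cone genes (1 and 2 of 26; 5 and 1 without the 3 libraries) and p53 targets (2 and 0 of 17) had few calls. Immediate early and axon injury genes had 4 rises and 4 falls among 21, which is 38.1% called against 23.0% of all genes tested. Of 10 interferon-stimulated genes tested none was called with all libraries, and 2 fell without the 3 libraries.

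Small nuclear and nucleolar RNAs were lower in knockdown neurites. The classes were picked after their values were seen, and the RNA column used for extraction retains short RNAs poorly. Of 39 small nucleolar RNAs (snoRNAs, guides of ribosomal RNA modification) 28 fell and none rose (median log2 -1.47). All 5 genes annotated as scaRNAs, their counterparts in Cajal bodies (-2.12), 20 of 33 spliceosomal snRNA genes and pseudogenes (-0.98) and 11 of 13 Y RNAs and their pseudogenes (-1.09) fell too. SCARNA9, whose annotated type is antisense, is not among the 5 and rose (log2 0.65 ± 0.17, edgeR adjusted p = 0.00918). The snoRNA share of counts was 0.0458, 0.0569, 0.0315, 0.0276 and 0.0340% in knockdown, against 0.0606, 0.0866, 0.245, 0.161 and 0.123% in control libraries. There was no overlap, and control 4 and 5, the libraries with the most 7SL, were the highest. SNORD17, shown above, had 19.5, 32.8, 12.1, 10.5 and 13.04 CPM in knockdown neurites, against 27.6, 45.3, 123, 75.3 and 68.7 CPM in control neurites (log2 -1.99 ± 0.33, edgeR adjusted p = 0.000353), with knockdown 2 above control 1.

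RNY3, which binds the Ro protein, had 116, 94.8, 64.8, 49.2 and 98.8 CPM in knockdown neurites, against 116, 138, 481, 299 and 215 CPM in control neurites (log2 -1.55 ± 0.31, edgeR adjusted p = 0.0016). Knockdown 1 and control 1 were level, and the distance between the groups came mostly from control 4, 5 and 6. VTRNA1-3, an RNA of the vault particle, had 3.71, 5.39, 2.37, 2.40 and 2.39 CPM in knockdown neurites, against 8.41, 9.34, 22.8, 15.6 and 8.68 CPM in control neurites (log2 -2.01 ± 0.29, edgeR adjusted p = 8.6e-05), while the vault protein MVP rose. Of 6 tested transcripts of RNA polymerase III other than 7SL 4 fell and none rose. Without the 3 libraries 27 of 45 snoRNAs (median -1.06), 5 of 5 scaRNAs, 10 of 20 Y RNAs (-0.81) and 9 of 37 snRNAs (-0.41) fell. With the 7SL share as a covariate 10 of 57 snoRNAs (-0.70), 3 of 9 scaRNAs, 1 of 23 Y RNAs (-0.50) and no snRNA fell. In the soma 13 of 105 snoRNAs fell and 1 rose (median 0.01), and SNORD17 had a log2 change of -0.05 there, a difference between fractions of -1.91 (edgeR interaction, adjusted p = 0.00115). Long RNAs that are held in the nucleus had 3 falls and 1 rise among 11 (median -0.22), with SNHG14 at 937 ± 54.4 CPM in knockdown and 1353 ± 273 CPM in control neurites (log2 -0.53). Without control 4 there were 5 falls and 1 rise.

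The change in neurites was then set against that in the soma fraction of the same experiment (4 knockdown and 5 control libraries), in a fit of all 4 groups with a test of the difference. In the soma 4170 of 22014 genes were called (18.9%). Of the 17107 genes tested in both fits 3933 were called in neurites, 3747 in soma and 1506 in both, which is 38.3% of the neurite calls and 40.2% of the soma calls. The direction was the same for 1414 of these and opposite for 92. The knockdown change differed between fractions for 2306 of 22014 genes (10.5%), 1278 with the higher value in neurites (5.81%) and 1028 with the higher value in soma (4.67%). With library sizes alone 328 genes differed, 130 and 198. The reduction of TARDBP was smaller in neurites than in soma. It had 41.8 CPM in knockdown neurites and 117 CPM in control neurites, against 19.5 CPM in knockdown soma and 111 CPM in control soma, and the difference in its log2 change was 1.02 ± 0.09 (edgeR interaction, adjusted p = 4.1e-08). STMN2 and PTPRT each differed by 0.62, CDH4 by 0.87 and ELAVL3 by 0.78, all of them less reduced in neurites. UNC13A was more reduced in neurites (log2 -0.37 in soma, difference -0.40, edgeR interaction, adjusted p = 0.0116, and -0.79 in the fit of neurites alone).

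Of the 2306 genes whose change differed, 1276 were called in neurites and not in soma, 511 in soma and not in neurites, 352 in both and 167 in neither. The neurite calls in this split come from the fit of all 4 groups, not from the fit of neurites alone. PHF2 averaged 299 ± 23.2 CPM in knockdown neurites and 102 ± 6.48 CPM in control neurites, against 111 ± 3.04 CPM in knockdown soma and 110 ± 5.81 CPM in control soma (difference in log2 change 1.52 ± 0.08, edgeR interaction, adjusted p = 2.5e-12). All 5 knockdown neurite libraries of PHF2 stood above every library of the other groups, which lay together. NKD2 averaged 18.8 CPM in knockdown neurites and 4.37 CPM in control neurites, against 5.60 CPM in knockdown soma and 5.35 CPM in control soma (difference 2.05 ± 0.18, adjusted p = 4.1e-08). MLYCD, the malonyl-CoA decarboxylase, averaged 59.8 and 24.0 CPM in knockdown and control neurites, against 33.5 and 32.1 CPM in knockdown and control soma (difference 1.233 ± 0.11, adjusted p = 4.1e-08). TRAK2 averaged 801 and 249 CPM in knockdown and control neurites, against 93.6 and 75.6 CPM in knockdown and control soma, so that an RNA already higher in neurites rose more there (difference 1.37 ± 0.14, adjusted p = 6.7e-07). BICD2 had a log2 change of 1.185 in the fit of neurites alone and of 0.10 in soma in the fit of 4 groups (difference in the latter 1.112, adjusted p = 9.3e-07).

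PDE9A, a cyclic GMP phosphodiesterase, went the other way in size, with 54.8 and 36.0 CPM in knockdown and control neurites, against 135 and 38.7 CPM in knockdown and control soma (difference -1.18 ± 0.11, adjusted p = 6.1e-08). MVP likewise rose more in soma (log2 3.70 there, difference -1.49). A pair of noncoding transcripts completed the 8 genes with the smallest p for the difference. EIPR1-IT1, annotated inside an intron of another gene, averaged 8.37 and 0.78 CPM in knockdown and control neurites, against 0.87 and 1.01 CPM in knockdown and control soma. The antisense gene ENSG00000267251 averaged 13.9 and 3.82 CPM in knockdown and control neurites, against 2.95 and 3.29 CPM in knockdown and control soma. EIPR1-IT1 is annotated as sense intronic, on the strand of its host gene, so with any strand setting it cannot be told apart from intronic reads of that gene. With the strand setting unknown, ENSG00000267251 cannot be told apart from its overlapping partner.

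Some lists divided between fractions in the same fit. Of all 22014 genes 5.81% had a higher knockdown change in neurites and 4.67% in soma. Of 13101 protein-coding genes with a transcript the numbers were 1166 and 425. Of the same 13101 genes 1459 rose and 1762 fell in soma. Of 13 mitochondrially encoded genes 9 had a higher knockdown change in neurites and none in soma, and in soma none was called. For cholesterol synthesis it was 12 of 24, with 1 rise and 2 falls in soma (median -0.05). Motor and adaptor genes had 12 of 42 with a higher change in neurites (soma: 2 rises, 6 falls), postsynaptic genes 12 of 32 (soma: 3 and 9), voltage-gated channels 13 of 41 (soma: 4 and 9) and guidance and adhesion genes 22 of 63, with 2 in the other direction (soma: 16 and 19). Nuclear-retained noncoding RNAs had 7 of 11 with a higher change in soma, where 5 rose and none fell. KCNQ1OT1, a long antisense RNA of an imprinted locus, had log2 changes of -0.36 in the fit of neurites alone and 0.41 in soma. For the loss-sensitive transcripts the counts were alike in both fractions, with 9 rises and 18 falls in soma, and 10 of 39 differed (8 higher in neurites, 2 higher in soma). Genes of ER translocation and secretion rose in soma too, with 11 rises and 0 falls among 42, and 7 had a higher change in neurites. Stress response genes had 14 rises and 2 falls among 32 in soma (median 0.15, against 0.05 in the fit of neurites alone). For 3 of them the change was higher in neurites and for 1 in soma, near the shares of protein-coding genes.

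**Figure D4:**
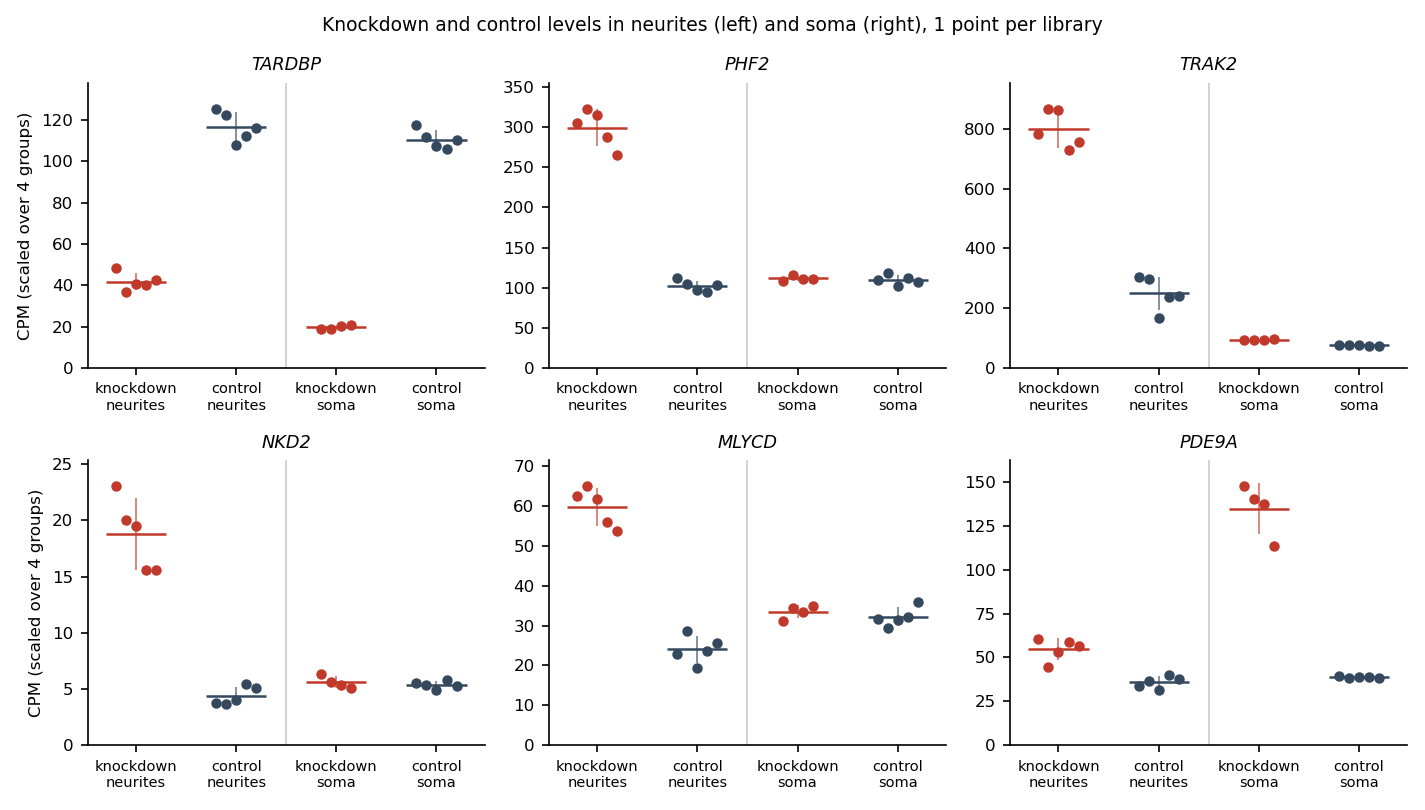
Levels of 6 genes in CPM scaled over 4 groups (vertical axes start at 0), with knockdown and control neurites on the left and knockdown and control soma on the right; points are libraries, bars means and lines SDs (n = 5, and n = 4 for knockdown soma). PHF2 and NKD2 stand apart in knockdown neurites alone, TRAK2 most in knockdown neurites, PDE9A most in knockdown soma, and TARDBP is lower in knockdown soma (19.5 CPM) than in knockdown neurites (41.8 CPM). MLYCD is highest in knockdown neurites, and its control neurites (19.2 to 28.6 CPM) lie below every soma library (29.5 to 36.0 CPM).

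TG runs of the kind TDP-43 binds were counted after the values above were seen, so the counts describe these genes and test nothing. For each protein-coding gene the longest run of alternating T and G was found on the transcript's own strand, in the longest annotated protein-coding transcript, and runs of 12 bases or more were counted. They were present in 195 of 1796 genes called higher (10.9%), in 63 of 1313 called lower (4.80%) and in 740 of all 13101 with a transcript (5.65%). Among protein-coding genes 13.7% were called higher and 10.0% lower. In 189 of the 195 (96.9%) the run lay in the 3' UTR, against 93.5% of all 740. The share of genes called higher was 9.74% with a longest run of up to 5 bases, 13.2% at 6 to 8, 19.1% at 9 to 11, 26.5% at 12 to 19 and 26.1% at 20 or more (2948, 8221, 1192, 437 and 303 genes). The share called lower was 9.67, 10.4, 9.56, 9.61 and 6.93% over the same steps.

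Transcripts with long runs were also longer (median 2.18 kb at the shortest runs and 5.98 kb at the longest), and genes called higher had longer transcripts (median 4.96 kb) than genes called lower (3.52 kb) or all genes tested (3.58 kb). Within transcripts over that median length, the share called higher was 16.7, 17.9, 22.9, 29.6 and 26.8% over the 5 steps. In shorter transcripts it was 8.24, 7.38, 9.83, 12.7 and 22.6%, the last from 53 genes. After hnRNPA1 knockdown, in other libraries, the share of genes called higher in neurites was 15.0, 11.9, 11.8, 10.7 and 9.15% over the same steps, and 4.58% of the genes called higher held a run of 12 bases or more, against 7.57% of those called lower. Within transcripts over the median length the hnRNPA1 share called higher was 12.7, 9.81, 10.6, 9.32 and 8.20%, and in shorter ones 15.5, 14.7, 14.8, 16.9 and 13.7%. In the soma after TDP-43 knockdown the share called higher was 8.31, 10.98, 12.3, 18.5 and 27.4%, and the share called lower was 10.9, 13.6, 16.9, 16.2 and 15.8%. Runs of 12 bases or more were held by 11.2% of the genes called higher in soma and by 6.75% of those called lower, against 5.65% of all. Across the settings tried, the share of the genes called higher in neurites that held such a run was between 8.90% (without the 3 libraries of high 7SL share) and 13.3% (library sizes alone). For the genes called lower it was between 4.65% (without control 2) and 7.59% (7SL share as a covariate), and it stood above the 5.65% of all genes there, without the 3 libraries (5.84%) and without control 4 (5.76%).

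The 5 rising genes whose runs are shown above were taken from the 20 called higher with no overlap and the smallest p that held one, and UNC13A was added as a gene with a long run that fell. C1orf216, with a run of 13 bases, averaged 42.9 ± 3.89 CPM in knockdown and 16.1 ± 0.92 CPM in control neurites (log2 1.43 ± 0.08, edgeR adjusted p = 1.5e-09). NAT8L, which makes N-acetylaspartate in neurons, also has a run of 13 bases and averaged 76.4 ± 9.24 and 26.8 ± 2.80 CPM (log2 1.495). CADM3, with 18 bases, averaged 239 ± 17.7 and 112 ± 3.69 CPM (log2 1.096). After hnRNPA1 knockdown their log2 values in neurites were -0.19, 0.11 and 0.09. All 3 also rose in the soma after TDP-43 knockdown (log2 1.2298, 0.78 and 0.58). IGF1R, the receptor of insulin-like growth factor, with 14 bases, averaged 496 ± 27.4 CPM in knockdown and 283 ± 35.7 CPM in control neurites (log2 0.81), and DUSP22, a phosphatase, with 12 bases, rose by 0.89 on the log2 scale. The longest runs among the 20 were those of HOMER2 (43 bases), QSOX2 and SLC1A5 (38 bases each). TMEM178B, with 37, averaged 402 ± 22.6 CPM in knockdown and 180 ± 21.8 CPM in control neurites. None of the 12 largest rises had a run of 12 bases or more, their longest being of 4 to 7 bases, and GALR1, with 35 bases, and UNC13A, with 18, fell.

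**Figure D5:**
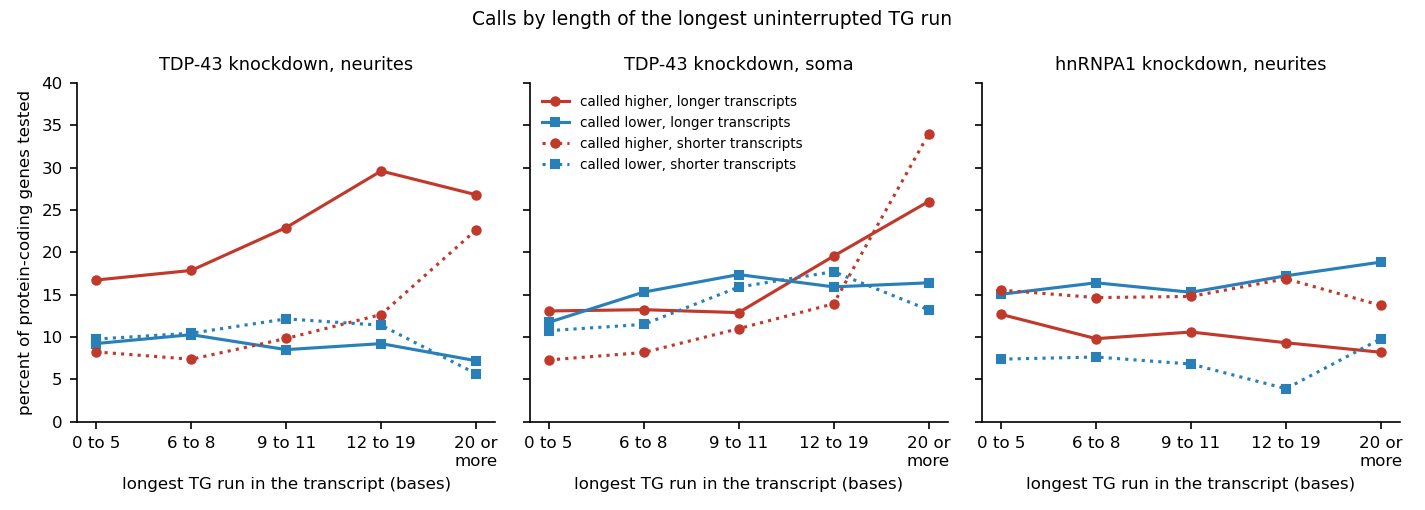
Percent of protein-coding genes called higher (circles) or lower (squares) by the length of the longest TG run in bases, for TDP-43 knockdown in neurites, TDP-43 knockdown in soma and hnRNPA1 knockdown in neurites; solid lines are transcripts over the median length and dotted lines shorter ones. In TDP-43 knockdown neurites the share called higher among longer transcripts is 16.7% at the shortest runs and 26.8% at the longest, while after hnRNPA1 knockdown it is 12.7% at the shortest and 8.20% at the longest.

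Genes called higher also differed from the rest in what the rule did not use. Their median span in the genome was 50.0 kb, against 44.9 kb for genes called lower and 35.6 kb for all genes tested, and the share called higher was 8.99, 10.8, 14.4, 16.1 and 18.2% over 5 equal bins of span, short to long, with 8.08, 8.76, 9.95, 10.3 and 12.99% called lower. In untreated neurons, which are other libraries, genes called higher had a median neurite over soma log2 ratio of 0.15, genes called lower -0.10 and all genes -0.01. Over 5 equal bins of that ratio, low to high, the share called higher was 6.15, 13.6, 18.7, 17.9 and 15.2%, highest in the middle bin. The share called lower was 11.5, 11.3, 9.54, 10.3 and 8.84%.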

How the data were processed

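Total RNA-seq counts of 52 libraries over 63241 genes were deposited by the authors as a table of expected counts (estimated counts per gene), of which 81.1% of nonzero values were whole within 0.005. The authors made these expected counts with STAR 2.7.11b, Subread 2.0.6 (featureCounts) and hg38, per the submitters' processing notes. Annotation release, strand setting and treatment of multi-mapping reads: not given in the sources used here. Counts were rounded to whole numbers, and 1 library under 100000 counts (knockdown soma 5) was left out. Of the IDs, 62030 were named from a name list and 58228 were in GENCODE 29, from which transcript and snoRNA sequences were read.

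Knockdown and control neurites (n = 5 each) were compared with edgeR 4.0.16 in R 4.3.3 (filterByExpr, TMM, quasi-likelihood test), and called at a Benjamini-Hochberg adjusted p under 0.05 over all genes. Means are TMM-scaled CPM with SDs. A fit of the 4 TDP-43 groups gave the soma change and the interaction. Shares of counts were compared by exact permutation (252 splits, scipy 1.17.1). No pair of libraries was a copy (chi-square per degree of freedom 3.43 to 161 over 20 pairs). For genes at a few counts per library, EIPR1-IT1 among them, counting error is part of the spread.

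Named genes were TARDBP, the 7SL genes, the 12 largest rises and falls among called protein-coding genes with at least 5 CPM in a group and no overlap, called loss-sensitive transcripts, up to 4 called members of smallest p in each other list, and the 8 interaction genes of smallest p. Genes named for TG runs or as markers, and small RNAs, were chosen after their values were seen. The members and lists were chosen with earlier results of these data known. Alternatives were DESeq2 1.42.0 and its size factors, limma 3.58.1 (voom), library sizes, no filter, 7SL genes removed, the 7SL share as covariate, a replicate block, each library left out, and 3 libraries of high 7SL share left out. Some named genes and sequences are not reported here. The code was tested on simulated data.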

Additional observations from a re-analysis of the deposited data

Results flagged for a closer look

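Of 124 groups of 5 libraries checked for a library far from the rest, 6 had one, of which 5 are given, where chance flags about 1 in 20 groups. Knockdown 3 stood above its group for the share of mitochondrially encoded proteins (4.07%, the others 2.89 to 3.22%) and for ELAPOR1 (50.1 CPM, the others 41.3 to 43.44 CPM). Control 4, the library with the highest 7SL share, stood below its group for GPR83 (9.42 CPM, the others 15.2 to 16.5 CPM) and CEP290 (59.8 CPM, the others 67.2 to 70.2 CPM). Control 1 stood above its group for EIPR1-IT1 (0.819 CPM, the others 0.584 to 0.626 CPM).

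The knockdown change differed between neurites and soma for 2306 genes by the edgeR interaction test. Among the named falls the change in neurites minus that in soma was 1.02 for TARDBP, 1.216 for MASP2, 0.62 for PTPRT, 0.62 for STMN2, 0.87 for CDH4, 0.56 for GPR83 and 0.98 for KLHL14 on the log2 scale, each reduced more in soma (log2 -1.70 in soma for GPR83 to -2.60 for MASP2). Among the rises it was 1.06 for TMEM179, 0.82 for ELK1, 0.39 for SLX9 and 1.37 for TRAK2, which rose more in neurites, and 1.52 for PHF2, 2.05 for NKD2 and 1.233 for MLYCD, whose soma changes were 0.02, 0.05 and 0.06. The noncoding EIPR1-IT1 and ENSG00000267251 differed by 3.61 and 1.98. MVP (-1.49), PREX2 (-0.99) and PDE9A (-1.18) rose more in soma, MVP by 3.70 and PREX2 by 2.60 there. The adjusted p-values of these differences ran from 2.5e-12 for PHF2 to 0.0319 for SLX9.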

How the results depend on the processing

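The number of genes called in neurites was 3933. It was 1102 with library sizes as the only scaling and 2061 with the 7SL share as a covariate, and 3030 to 4168 with each library left out in turn. The interaction count of 2306 was 328 with library sizes alone and 1638 to 2484 with each library left out. Of 157 named genes tested, 91 kept their call and direction with library sizes, 133 with the covariate, 151 without the 3 libraries of high 7SL share, 153 with DESeq2 and 147 to 154 with a library left out. RN7SL1 and RN7SL3 had log2 values of 0.18 and 0.57 with the 7SL share as covariate, the opposite sign of their values without it, and RN7SL3 was called. The covariate is made from the counts of these same genes, so those values do not measure a change of 7SL. RN7SL1 passed the threshold without knockdown 2, without the 3 libraries and with library sizes, and both genes passed it without a low-count filter. The cause of the other changes was not tested.

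The replicate numbers did not pair knockdown with control neurites: the correlations of same-numbered knockdown and control neurites were -0.0798, -0.0196, -0.0668 and -0.0225, and none of the 4 correlated best with its own number. Between neurites and soma the knockdown samples 1 to 4 had 0.0797, 0.0321, 0.0314 and 0.0715, each best with its own number, and the 5 control samples -0.0847 to 0.0170, none best with its own. The interaction count with the replicate block was 2176. With the replicate block 1898 genes were called, against 2665 in the same 8 libraries without it, and list medians were 0.013 for p53 targets, -0.33 for interferon-stimulated genes and 0.065 for neural progenitor markers.

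List medians (log2) moved by more than the spread of the libraries in these cases. With library sizes alone they were -0.064 for loss-sensitive transcripts, 0.19 for signal recognition particle proteins, 0.26 for translation factors, 0.055 for tubulins, 0.12 for actin, 0.090 for presynaptic, 0.20 for guidance, 0.18 for stress response, 0.30 for cholesterol, 0.040 for p53, 0.11 for hnRNP and SR, 0.15 for RNA granule, -0.0093 for ALS and FTD, 0.13 for autophagy, 0.076 for nuclear pore, 0.37 for ER translocation, 0.12 for neuron and 0.036 for pluripotency genes. With the 7SL covariate they were -0.37 for other RNA polymerase III transcripts, 0.13 for stress response and -0.090 for ALS and FTD genes. Without the 3 libraries of highest 7SL share they were 0.24 for neurofilaments, 0.17 for stress response, 0.28 for cholesterol, -0.089 for ALS and FTD and 0.31 for ER translocation genes. With all 4 groups in the fit they were 0.034 for hnRNP and SR and -0.090 for ALS and FTD genes, which were at -0.10 without a low-count filter.

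With each library left out, the median ran from -0.0035 to 0.15 for stress response, 0.16 to 0.26 for cholesterol, -0.15 to -0.084 for ALS and FTD and 0.041 to 0.31 for progenitor genes. The difference in the mitochondrially encoded share ran from 0.919 to 1.217 points and in the ribosomal protein share from 0.406 to 0.747 points. That in total counts ran from -0.0158 to 1.902 (in 1e6 counts), changing sign without knockdown 1.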
